A study of Mus musculus with 22 samples.

Results

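Regulators of skeletal muscle identity and markers of the myoblast, 9 genes matched by exact symbol, were followed in mouse chondrocytes with and without deletion of the maintenance DNA methyltransferase Dnmt1: Myod1, Myf5, Myog, Myf6, Pax3, Pax7, Six4, Megf10 and Cdh15. They are 9 of the 34866 genes in the culture tables. They were chosen by their levels in these same comparisons, so the values of the 9, their fold changes included, are given as descriptions, with no p, and counts of calls only beside their background. The 22 samples were bulk RNA-seq libraries of control mice (labelled Dnmt1 flox) and of conditional knockout mice, cKO (labelled Prrx1-Cre;Dnmt1 flox/flox), in which Cre is driven by Prrx1, a gene of limb bud mesenchyme. Primary chondrocytes grown from knee cartilage of mice aged 3 to 5 days were taken untreated at day 0 (3 control and 3 cKO libraries) or after 3 days with the bone morphogenetic protein BMP2, labelled 100 ng/μl (4 and 4). Cartilage cells freshly released with collagenase from mice aged 5 days gave the remaining 4 control and 4 cKO libraries, with 2 males and 2 females of each genotype.

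Myogenesis runs through basic helix-loop-helix factors that pair with E proteins on E-boxes, the DNA motif CANNTG. Myf5 and Myod1 commit cells to the muscle lineage, and Myog and Myf6 (also called Mrf4) drive differentiation and maturation. Pax3, Pax7 and Six4 act upstream in progenitor cells, and Megf10 and Cdh15 (M-cadherin) are proteins of the myoblast and satellite cell surface. Forced expression of Myod1 in fibroblasts or chondrocytes is a textbook way to impose the muscle programme.

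The targeted gene checked the labels: Dnmt1 was at 157.6 ± 6.88 CPM (counts per 1e6 counts of the library, scaled with edgeR's TMM factors; SD, n = 3) in day 0 control and 28.98 ± 3.26 in day 0 cKO cultures. At day 3 it was at 68.9 ± 8.53 and 25.7 ± 11.6 (SD, n = 4), in cartilage at 41.5 ± 6.12 and 12.9 ± 1.05 (SD, n = 4), with no overlap of the genotypes in any setting. The day 3 cKO libraries stood at 34.2, 35.6, 22.2 and 10.9 CPM, lowest in replicate 4. These cartilage values are from whole-number counts. The estimated counts gave a smaller difference in cartilage, 52.3 ± 7.52 and 30.2 ± 3.24 CPM (SD, n = 4), also without overlap. Libraries held 41749327 to 51741478 counts at day 0, 14434197 to 18918714 at day 3 and 1100198 to 1888896 in cartilage. A level of 3 counts, taken as the floor of detection, therefore stood, on the same scaled CPM, at 0.0582 to 0.0720 at day 0, 0.148 to 0.206 at day 3 and 1.51 to 2.70 in cartilage. All 8 chondrocyte markers listed (such as Col2a1 and Acan) were above that floor in at least 1 library of each group. At day 0 the smooth muscle (3 of 3) and tenocyte (3 of 3) markers passed the same bar in each genotype. The bar therefore does not settle the cell type. Day 3 cKO replicate 4 stood apart: the chi-square of its pairs, divided by the degrees of freedom, was 123.9 to 138.4, and that of the other day 3 cKO pairs 7.42 to 10.9. Results at day 3 are therefore given by library. All cartilage control libraries came from 1 sequencing pool and all cartilage cKO libraries from another, so pool and genotype cannot be told apart there.

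Myod1, on chromosome 7 (GRCm38, 46376474 to 46379099, plus strand), was the determination factor that cKO cultures already carried before BMP2. The 3 day 0 control libraries held 0 counts each, and the 3 cKO libraries held 576, 360 and 622, or 13.8, 8.26 and 12.1 CPM. The mean of 11.4 ± 2.84 CPM (SD, n = 3) was at least 164-fold higher than the control floor of 3 counts in the shallowest library. At day 3 the controls held 2, 0, 1 and 0 counts, and the cKO libraries 447, 750, 875 and 118, or 25.1, 37.0, 45.6 and 6.80 CPM. The genotypes were thus far apart on both days, and replicate 4 was the lowest of the day 3 cKO cultures, below all 3 day 0 values. With 3 control counts in all, the day 3 ratio was 634.7 (95% counting interval 216.9 to 3080), and the fitted log2 fold change ran from 8.64 to 10.06 when 1 library was left out, highest without control replicate 1. In bulk libraries fewer cells of a type and less RNA per cell cannot be told apart, and this holds for each level below.

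Myf5, the other determination factor (chromosome 10, 107482908 to 107486134, minus strand), stayed at the floor. It had 1, 0 and 1 counts in the day 0 cKO libraries and 0 in the other 11 culture libraries. Myf6 lies next to it on the same strand (107492853 to 107494737) and had 0, 1 and 0 counts in day 0 cKO, and 6, 1, 3 and 0 in day 3 cKO cultures. Every control culture held 0 counts of Myf6. Of these 4 day 3 cKO libraries, 1 exceeded the floor, so Myf6 was detectable in that library only.

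Myog, myogenin (chromosome 1, 134289989 to 134292548, plus strand), carries out the step from dividing myoblast to differentiating muscle cell. At day 0 the control libraries held 1, 0 and 0 counts and the cKO libraries 1, 0 and 0 as well. At day 3 the controls held 1, 1, 1 and 0 counts, and the cKO libraries 753, 1249, 1316 and 55, or 42.3, 61.6, 68.6 and 3.17 CPM. All 4 cKO cultures lay above every control, and replicate 4 was far below the other 3. The day 3 ratio of cKO to control was 977.5 (95% counting interval 334.2 to 4742), over 3 control counts. Day 0 libraries were the deeper ones, so the absence of Myog beside abundant Myod1 at day 0 was measured with a lower floor than its presence at day 3.

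The 250 bases before the RefSeq start (GRCm38.p6) are shown for Myog and Myf5, the members at opposite ends of the day 3 cKO levels, with E-boxes in capitals. CANNTG reads the same on both strands, so each site was counted once. The Myog window is chr1:134289754-134290003 on the plus strand, its last 15 bases inside the annotated gene, and the Myf5 window is chr10:107486135-107486384 on the minus strand.
Myog: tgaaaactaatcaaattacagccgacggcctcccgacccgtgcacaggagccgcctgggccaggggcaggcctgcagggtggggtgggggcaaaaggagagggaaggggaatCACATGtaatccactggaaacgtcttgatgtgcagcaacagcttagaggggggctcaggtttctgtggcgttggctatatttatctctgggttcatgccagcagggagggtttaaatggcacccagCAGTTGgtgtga
Myf5: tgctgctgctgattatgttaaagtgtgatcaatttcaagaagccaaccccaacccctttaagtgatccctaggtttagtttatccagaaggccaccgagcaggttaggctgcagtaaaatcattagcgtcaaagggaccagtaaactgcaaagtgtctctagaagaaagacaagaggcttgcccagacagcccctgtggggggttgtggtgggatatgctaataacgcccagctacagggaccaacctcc
Myog has 2 E-boxes, CACATG and CAGTTG, and 7 CpG sites, the bases that Dnmt1 keeps methylated through cell division. Myf5 has no E-box in this window and 3 CpG. The Cdh15 window has 3 E-boxes and 5 CpG. Pax7 has no E-box and 13 CpG, and the windows of Six4, which has 2 starts, have no E-box with 15 and 13 CpG. The Cdh15 and Pax7 windows lie wholly inside the annotated gene, and the Six4 windows with 211 and 31 of their bases. Of all 32841 RefSeq windows of this length, 66.2% hold at least 1 CANNTG, 31.8% at least 2 and 12.2% at least 3, and the median CpG number is 6. A match is a description of the letters and not a bound site. Windows were matched for 5 of the 9 members, and those of Myod1, Myf6, Pax3 and Megf10 were not used here.

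Pax3 (chromosome 1, 78101267 to 78197134, minus strand), a paired-box factor of muscle progenitors and neural crest, was low throughout. At day 0 the controls held 3, 8 and 0 counts and the cKO libraries 11, 11 and 16, or 0.264, 0.252 and 0.310 CPM. The ratio was 3.45 (95% counting interval 1.73 to 7.47), with the cKO values above each control. At day 3 the controls held 0, 0, 0 and 1 counts, and the cKO libraries 10, 18, 6 and 63, or 0.562, 0.888, 0.313 and 3.63 CPM. Replicate 4, lowest for Myod1 and Myog, was here the highest of the cKO cultures. The mean of 1.35 ± 1.54 CPM (SD, n = 4) fell to 0.588 ± 0.288 without it, and the day 3 ratio of 84.3 rested on 1 control count (95% counting interval 14.8 to 3365). Pax7, the paired-box factor of satellite cells (chromosome 4, 139737062 to 139833528, minus strand), held 0, 2, 0 and 0 counts in day 3 cKO libraries and 0 in all other cultures, so satellite cell Pax7 was not detectable at this depth.

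Six4, a homeobox factor that works with Eya proteins upstream of the myogenic factors (chromosome 12, 73099609 to 73113456, minus strand), was expressed at similar levels in control and cKO cultures. At day 0 it was at 7.95, 8.13 and 7.07 CPM in control and 8.43, 8.51 and 7.75 CPM in cKO cultures. At day 3 it was at 10.3, 12.5, 13.3 and 10.9 CPM in control and 11.8, 11.6, 10.8 and 7.37 CPM in cKO cultures. The genotypes overlapped on both days. The log2 fold change (cKO over control) was 0.09 (SE 0.0862) at day 0 and -0.17 (SE 0.160) at day 3.

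Megf10, an EGF-repeat receptor of satellite cells that is also used by glia (chromosome 18, 57133090 to 57297467, plus strand), had a low level in control cultures. Day 0 controls held 4, 9 and 12 counts (0.0874, 0.190 and 0.277 CPM) and cKO cultures 69, 60 and 63 (1.66, 1.38 and 1.22 CPM). The genotypes did not overlap, with a log2 fold change of 2.92 (SE 0.334). At day 3 the controls held 2, 1, 5 and 0 counts, and the cKO libraries 151, 237, 198 and 118, or 8.49, 11.7, 10.3 and 6.80 CPM. Replicate 4 was the lowest again but close to the other 3, and all 4 lay above every control. The log2 fold change was 6.17 (SE 0.50), and 7.08 without control replicate 3.

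Cdh15, which encodes the adhesion molecule M-cadherin (chromosome 8, 122847966 to 122867397, plus strand), had 0, 2 and 1 counts in day 0 controls and 55, 57 and 67 in cKO cultures. The cKO levels of 1.32, 1.31 and 1.30 CPM were nearly equal, and the ratio was 59.5 (95% counting interval 20.04 to 291.3) over 3 control counts. At day 3 the controls held 0, 0, 3 and 1 counts, and the cKO libraries 122, 232, 273 and 32, or 6.86, 11.4, 14.2 and 1.84 CPM. Here too no library of the genotypes overlapped, replicate 4 was the lowest cKO culture, and the ratio was 143.2 (95% counting interval 55.7 to 527.3). Leaving out 1 library, the fitted Cdh15 log2 fold change ran from 5.19 to 6.54 at day 0 and 6.53 to 8.27 at day 3, the highest without control replicate 2 and control replicate 3. Gm20388 overlaps Cdh15 in introns only, and the other 8 members overlap no annotated gene.

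**Figure D1:**
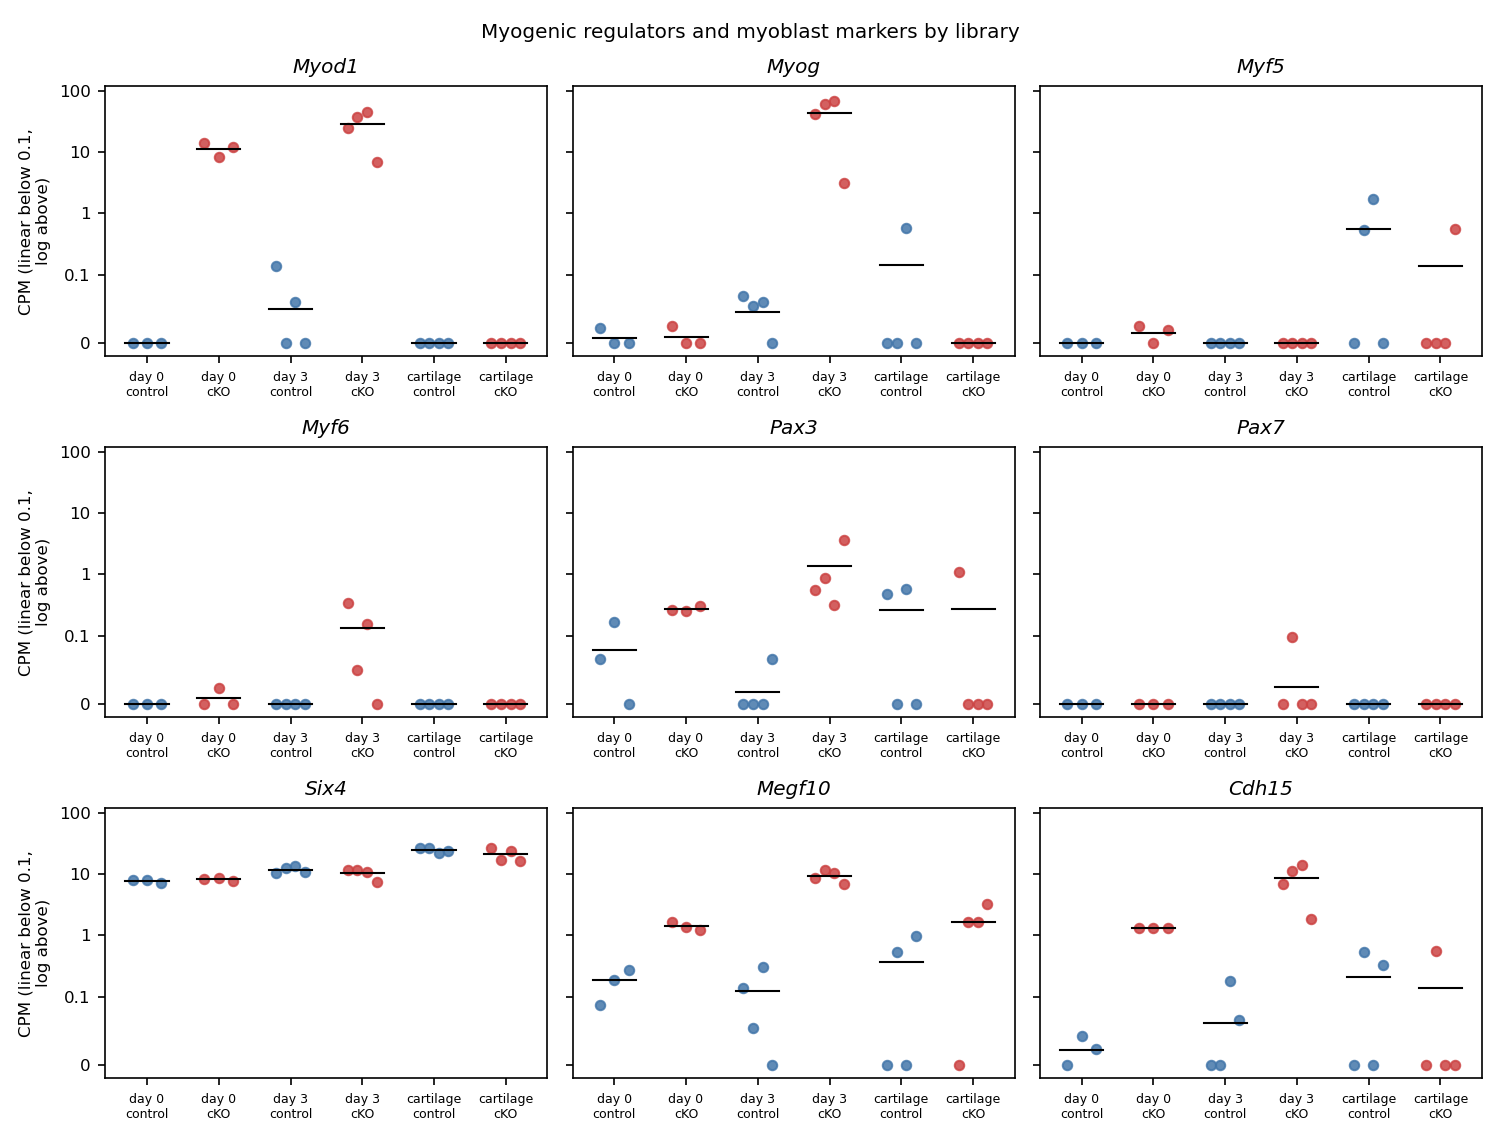
Each panel plots 1 member, with a point for each library by group (day 0, day 3 and cartilage, control and cKO) and CPM on the vertical axis, linear below 0.1 and logarithmic above; cartilage points come from the estimated-count table. Myod1, Cdh15 and Megf10 are raised in cKO cultures on both days, Myog at day 3 only, and Six4 is present in every library with overlapping genotypes. Myf5, Myf6 and Pax7 lie at or near 0 in culture. In cartilage Myf5 reaches 1.72 CPM, from 3 estimated counts, in control replicate 3.

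Counted over the 9, 4 members had every cKO library above 3 counts and above every control at day 0 (Myod1, Pax3, Megf10 and Cdh15), a property of 36.2% of the genes tested there. At day 3 it held for 5 (those 4 and Myog), against 24.4% of genes tested. By edgeR's quasi-likelihood test, with 5 members passing the low-count filter on each day, 4 were called higher at day 0, where 33.0% of genes were called higher, and 4 at day 3, where 25.5% were. None was called lower, where 31.6% of genes were at day 0 and 22.6% at day 3. The same contrasts chose the members. Myod1, Myog and Cdh15 had every control at the floor on the days they were called, and so passed the filter through the cKO libraries. Pax3 and Megf10 also had too few control counts to pass without the cKO libraries on the days they were called. For these reasons nothing is read from the counts of calls. The day 0 call of Pax3 was the unstable one: it was lost in 5 of the 6 fits that left out 1 library, all but the one without control replicate 2, and also with DESeq2, with the replicate block and with all 14 cultures fitted together. Its log2 fold change ranged from 1.20 to 2.93 over those 6 fits.

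The order in which members appeared was read from the day 0 cKO mean as a percent of the day 3 cKO mean. Myog had the latest onset, at 0.0182% of its day 3 level. Megf10 stood at 15.2% ± 4.21 and Cdh15 at 15.2% ± 9.63 (SD of the ratio), indistinguishable from each other. Pax3 stood at 20.4% ± 23.4, a value that rested on replicate 4 and was 46.9% without it. Myod1 stood at 39.8% ± 25.4, or 31.7% without replicate 4, and Six4 at 79.1% ± 16.2. Myog lay below the other 5, and Six4 was near its day 3 level from the start. The spreads of Megf10, Cdh15, Pax3 and Myod1 overlapped, and without replicate 4 Pax3 stood above Myod1 in this order. Within a library, however, Cdh15 and Megf10 were lower relative to Myod1 at day 0 than at day 3 with no overlap. Replicate 4 of day 3 held less Myod1 than any day 0 cKO library, so nearness to the day 3 level is not read from these ratios. Myf6 was at or near the floor on both days, and Myf5 and Pax7 had too few counts for an order. Day, BMP2 and the separate library sets changed together between these groups, so their parts cannot be told apart.

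**Figure D2:**
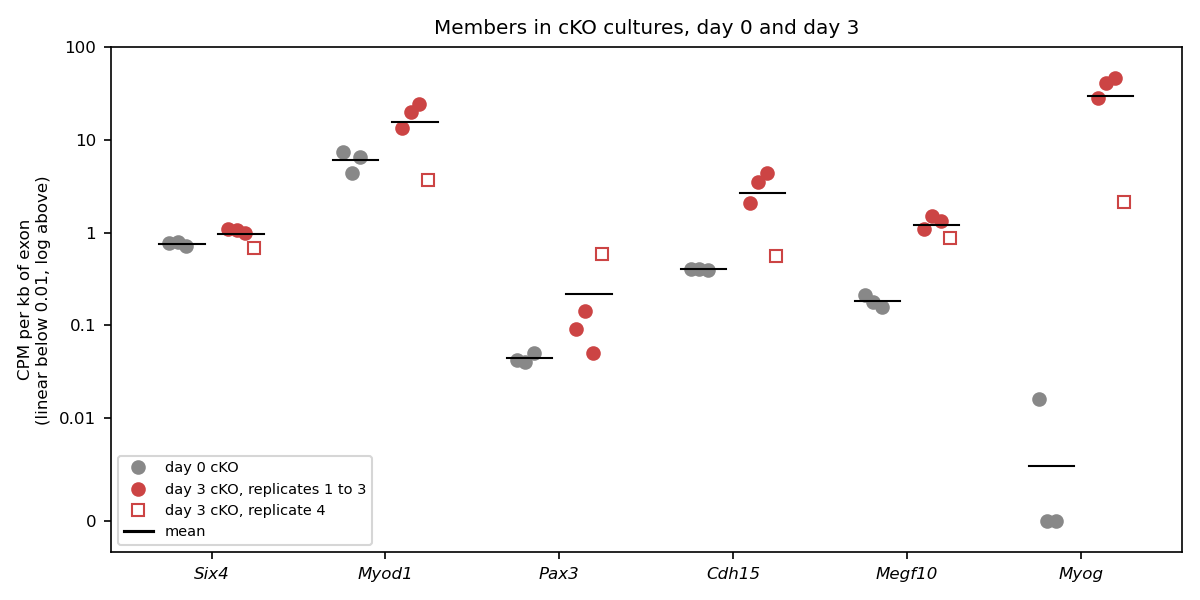
Points show each cKO library at day 0 and day 3 for the members, in CPM per kilobase of exon, with replicate 4 of day 3 as open squares. Myog goes from the floor to the highest of the members in 3 of the 4 day 3 libraries, and Myod1 is the highest at day 0.

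Levels of different genes were compared only per kilobase of exon. In day 0 cKO cultures Myod1 was highest at a mean of 6.12 CPM per kb, followed by Six4 at 0.758, Cdh15 at 0.403, Megf10 at 0.184 and Pax3 at 0.0445. In day 3 cKO cultures Myog led at 29.4 CPM per kb, then Myod1 at 15.4, Cdh15 at 2.64, Megf10 at 1.21, Six4 at 0.958 and Pax3 at 0.218. The ratio of Myog to Myod1 per kb was 2.10, 2.07 and 1.87 in day 3 cKO replicates 1 to 3 and 0.580 in replicate 4. Myod1 thus exceeded Myog in replicate 4 and was exceeded in the other 3. Cdh15 to Myod1 was 0.0547, 0.0906 and 0.0617 in day 0 cKO cultures, and 0.156, 0.177, 0.179 and 0.155 at day 3. Each day 3 value was above every day 0 value, and replicate 4 was close to the others. Megf10 to Myod1 was 0.0289, 0.0402 and 0.0244 at day 0, and 0.0815, 0.0762, 0.0546 and 0.241 at day 3, again with no overlap of the days. Pax3 to Myod1 was 0.00574, 0.00919 and 0.00774 at day 0, and 0.00673, 0.00722, 0.00206 and 0.161 at day 3, with overlap. Replicate 4 was the highest day 3 library for both Megf10 and Pax3 relative to Myod1. The members did not scale together: replicate 4 held less Myod1, Myog and Cdh15, somewhat less Megf10 and more Pax3 than its group.

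**Figure D3:**
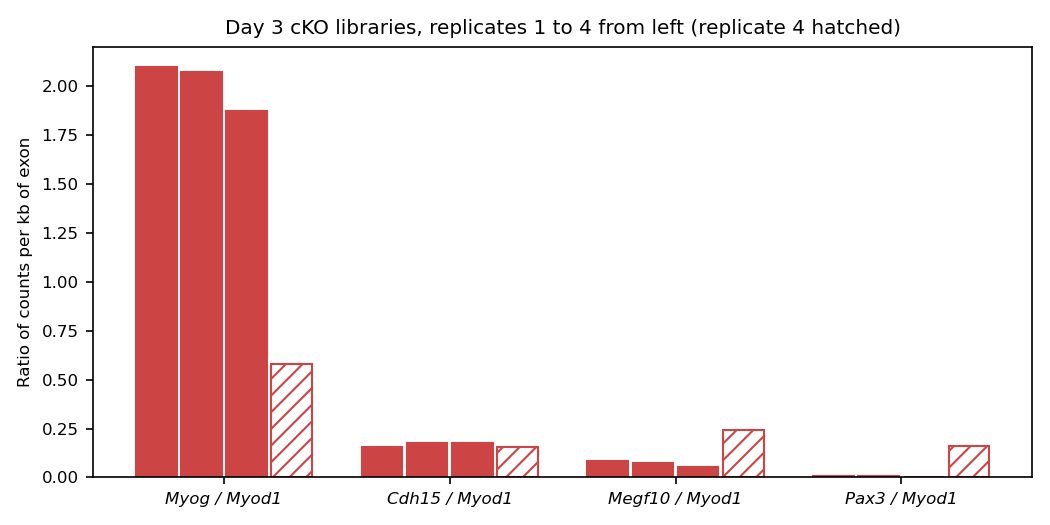
Bars show the ratio of Myog, Cdh15, Megf10 and Pax3 to Myod1, each per kilobase of exon, in the 4 day 3 cKO libraries. Replicate 4 has the lowest Myog ratio (0.580) and the highest Megf10 and Pax3 ratios, while its Cdh15 ratio (0.155) lies beside the lowest of the others (0.156).

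In cartilage the programme seen in culture was not detectable at this depth. Myod1, Myf6 and Pax7 had 0 estimated counts in all 8 libraries. In the whole-number table Myog had 1 count in control replicate 3 only, Myf5 1 count in control replicate 2 only, and Cdh15 1 count each in control replicates 2 and 4 and cKO replicate 2. Myf5 had 0, 1, 3 and 0 estimated counts in control and 0, 0, 0 and 1 in cKO libraries. Megf10 had 0, 1, 0 and 2 counts in control and 0, 3, 3 and 5 in cKO libraries, a ratio of 4.39 (95% counting interval 1.16 to 24.5) with overlapping genotypes. Pax3 had 2 estimated counts in each genotype. Six4 was the only member well above the floor, with 34, 33, 21 and 42 counts in control and 28, 15, 24 and 17 in cKO libraries, or 23.1 ± 3.86 and 17.7 ± 4.95 CPM (SD, n = 4). Its log2 fold change was -0.37 (SE 0.230), with overlap, and it was not called, where 3.15% of genes were called higher and 3.04% lower. No member had every cKO library above 3 counts and above every control, where 7.01% of genes tested had. The floors of 1.51 to 2.70 CPM lie above the day 0 cKO culture means of Megf10 (1.42), Cdh15 (1.31) and Pax3 (0.276) and below the 8.26 to 13.8 CPM of Myod1, although 3' counting and whole-transcript counting are not on 1 scale.

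Markers of other cell types were measured beside the members. Of 10 mature muscle fibre genes, 7 exceeded the floor in a day 0 control library and 6 in a day 0 cKO library, with summed levels of 3.67 to 4.33 and 3.99 to 5.00 CPM. At day 3 the sums were 3.49 to 4.23 CPM in controls, with Myh2 and Myh4 at 0, and 49.0 to 629.1 in cKO cultures, where all 10 exceeded the floor and replicate 4 gave the lowest sum. So at day 0 the fibre sums of the genotypes overlapped while Myod1 did not, and at day 3 the fibre sums were high and low in the same libraries as Myog. In cartilage 1 of 10 fibre genes exceeded the floor in each genotype, with Ckm, Mb, Myh1, Myh2 and Mybpc2 at 0 in both. The summed chondrocyte markers were lower in cKO, at 127440 to 134846 CPM in day 0 control and 47529 to 57715 in day 0 cKO cultures. At day 3 they were at 81609 to 100441 CPM in control and 1112 to 15418 in cKO cultures, lowest in replicate 4. In cartilage the chondrocyte sums were also lower, at 58588 to 88961 CPM in control and 26012.5 to 54204 in cKO libraries. Smooth muscle genes (2 of 3 above the floor in day 3 control and 3 of 3 in cKO cultures) summed to 156.4 to 210.7 CPM in day 3 control and 427.4 to 1866 in day 3 cKO cultures, highest in replicate 4. Schwann and neural crest markers, of a lineage that also uses Pax3, had 3 of 5 above the floor in each day 3 group, with Foxd3 at 0 in both, and sums of 5.01 to 5.97 CPM in control and 2.19 to 7.35 in cKO cultures. Replicate 4, where Pax3 was highest, had the lowest of these sums. Macrophage and leukocyte markers had 3 of 5 above the floor in each day 3 group, with C1qa at 0 in both, and sums of 0.900 to 1.37 CPM in control and 6.07 to 12.04 in cKO cultures. Several of these lists were already apart at day 0, when cKO cultures carried Myod1. Leukocyte markers (3 of 5 above the floor in each genotype, C1qa at 0 in control) summed to 1.43 to 1.82 CPM in control and 3.94 to 4.06 in cKO cultures. Endothelial markers (3 and 4 of 5, Cdh5 at 0 in control) summed to 1.13 to 1.38 and 3.27 to 3.83 CPM at day 0, and (2 and 3 of 5, Emcn at 0 in both) to 0.300 to 1.10 and 1.38 to 1.61 CPM at day 3. Tenocyte markers (3 of 3) summed to 16.6 to 20.2 and 27.2 to 29.2 CPM, and smooth muscle markers (3 of 3) to 645.1 to 669.9 and 949.6 to 1109 CPM at day 0. At day 3 tenocyte sums (2 of 3) were 14.5 to 24.2 and 23.9 to 37.8 CPM, with overlap. Adipocyte markers (1 of 3 at day 0) summed to 0.0422 to 0.208 and 0.298 to 0.368 CPM at day 0, and (1 and 3 of 3) to 0 to 0.343 and 0.922 to 4.05 CPM at day 3, with Adipoq and Cidec at 0 in controls on both days. The part of these cell types in the members' levels was not tested.

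Among 19 genes that act beside or upstream of the members, such as the Eya genes, 12 were tested at day 0 and 4 rose while 6 fell (edgeR, Benjamini-Hochberg adjusted p under 0.05), with a median log2 fold change of -0.30 against 0.01 over all genes. Dach1, a cofactor of the Eya proteins, rose by 1.35 on the log2 scale (SE 0.180, adjusted p = 0.000146 by edgeR), a call lost with all 14 cultures fitted together. Meox1, a somite homeobox gene, fell by 2.11 (SE 0.371) and Meox2, which acts in limb muscle, by 1.14 (SE 0.242), while Six5 fell by 1.03 (SE 0.0637). At day 3, 3 of 10 tested rose and 4 fell, with a median of -0.29. Met, the receptor that guides migrating muscle progenitors, rose by 1.95 (SE 0.196, adjusted p = 0.000116 by edgeR). Six2 fell by 2.45 (SE 0.602) and Meox2 by 1.62 (SE 0.367). Dach1 rose by 1.98 (SE 0.662), a call lost without control replicate 2 (1.76), 3 (2.21) or 4 (1.76) and with the replicate block (1.65), and 1.01 without cKO replicate 4. In cartilage none of 8 tested passed by edgeR or DESeq2, and 2 had an unadjusted p under 0.05 by edgeR. These lists, like the members, were drawn up with earlier results known.

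Basic helix-loop-helix partners and inhibitors moved in both directions. At day 0, 9 of 18 tested rose and 7 fell (median log2 fold change 0.12), and at day 3, 6 of 18 rose and 3 fell (0.28). The day 0 changes included Id2, which sequesters E proteins, up by 0.56 (SE 0.0748), and Twist2, a repressor of myogenic factors, up by 1.21 (SE 0.145). Mdfi, an inhibitor that holds myogenic factors in the cytoplasm, fell by 0.75 (SE 0.0486), and the Notch target Hes1 rose by 0.82 (SE 0.138), a call lost with all 14 cultures fitted together. At day 3 Id3 rose from 105.5 ± 15.5 to 229.6 ± 20.8 CPM (SD, n = 4), Bhlhe40 by 1.79 on the log2 scale (SE 0.0769) and Hes1 by 1.60 (SE 0.382). Id4 rose by 1.10 (SE 0.330), a call lost without control replicate 2 (1.06), 3 (1.01) or 4 (1.07). Without cKO replicate 4 the values were 0.65 for Id4 and 1.06 for Hes1. In cartilage 1 of 16 passed, Bhlhe41, which fell by 1.11 (SE 0.148, adjusted p = 0.000178 by edgeR).

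Mef2 factors and cofactors, which work with the myogenic factors on muscle promoters, had 7 of 14 tested higher and 3 lower at day 0 (median log2 fold change 0.15), and 8 of 13 higher and 1 lower at day 3 (0.49). At day 0 Mef2b fell by 1.97 (SE 0.162), while Srf rose by 0.53 (SE 0.0564), Hdac5 by 0.52 (SE 0.0375) and the cell cycle gene Rb1 by 0.59 (SE 0.0758). At day 3 Smyd1, a muscle histone methyltransferase, rose by 6.44 (SE 0.956), from 0.251 ± 0.190 to 21.9 ± 14.9 CPM (SD, n = 4). Hdac9 rose by 2.73 (SE 0.550; 1.93 without cKO replicate 4), Rb1 by 1.40 (SE 0.142) and Hdac4 by 0.96 (SE 0.230). None of 9 tested passed in cartilage by edgeR or DESeq2, and 4 had an unadjusted p under 0.05 by edgeR.

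Among genes of the myoblast surface and of fusion, at day 0, 5 of 18 tested rose and 5 fell, and the median log2 fold change over the list was 0.00. Des, the muscle intermediate filament desmin, was at 1.74 ± 0.177 CPM in control and 21.2 ± 2.45 in cKO cultures (SD, n = 3), higher by 3.60 on the log2 scale (SE 0.116, adjusted p = 3.03e-08 by edgeR). Nes, nestin of progenitor cells, rose by 2.65 (SE 0.0951), while Fgfr4 fell by 1.16 (SE 0.104) and Cxcr4 by 1.09 (SE 0.299), both calls being lost with all 14 cultures fitted together. At day 3, 16 of 22 tested rose and 3 fell, with a median of 2.96, also with the 3 genes whose controls were all at the floor set to their bound. These 3 and others with few control counts, such as Des (34 in all), needed the cKO libraries to pass the filter. The count of 16 is thus in part fixed by the filter. Des reached 218.1 ± 131.3 CPM, up by 8.69 (SE 0.803). Chrng and Chrnd, acetylcholine receptor subunits of muscle, had no count in any day 3 control and were at least 62.1-fold and at least 23.0-fold higher in cKO cultures. Musk, the receptor kinase of the neuromuscular junction, was at 5.34 ± 2.38 CPM in cKO cultures (SD, n = 4), with 1 count in all controls. In replicate 4, low in Myog, Chrng was at 1.56 CPM, against a group mean of 12.8 ± 7.87 (SD, n = 4). In cartilage 2 of 9 rose and 1 fell: Nes by 1.34 (SE 0.222, adjusted p = 0.00128 by edgeR), Des by 1.44 (SE 0.353, adjusted p = 0.0241 by edgeR) and Jam2, which fell by 1.18 (SE 0.310). The Des call was lost without control replicate 1 (1.47), 2 (1.33) or 4 (1.52), without cKO replicate 2 (1.04) or 3 (1.40), with DESeq2 (1.45) and in the estimated counts (1.12). The Jam2 call was lost without control replicate 2 (-1.08), 3 (-1.15) or 4 (-1.16), without cKO replicate 2 (-1.11) or 4 (-0.91), with DESeq2 (-1.20) and in the estimated counts (-1.21). Both genes are therefore uncertain in cartilage.

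Sarcomere genes, the contractile products downstream of Myog and the Mef2 factors, had 7 of 16 tested higher at day 0 (median log2 fold change 0.57). Tnnt2 rose by 4.75 (SE 0.456), from 0.0945 ± 0.0541 to 2.63 ± 1.11 CPM (SD, n = 3), Neb by 2.37 (SE 0.207) and Tnnt1 by 2.34 (SE 0.276). Myh3, embryonic myosin, rose by 3.23 (SE 0.362), a call lost with all 14 cultures fitted together. At day 3 all 22 tested rose, with a median of 8.89, or 7.38 with the 11 genes whose controls were all at the floor set to their bound. Those 11 passed the low-count filter through the cKO libraries and had to be higher. Others with few day 3 control counts in all, such as Tnnt1 (22), Neb (24) and Tnnt3 (26), also needed the cKO libraries to pass. Much of the count of 22 is thus fixed by the filter, and the bound covers only the 11. At day 0 Myh3 (12 control counts in all) and Tnnt2 (13) passed in the same way. Myh3 was at 245.6 ± 166.3 CPM in cKO cultures, Myh1 at 218.8 ± 132.4 and Myl1 at 197.3 ± 127.1 (SD, n = 4), against 1, 3 and 1 counts in all controls. Actc1, cardiac actin of developing muscle, was at least 163.9-fold higher. The sarcomere sum was 2164, 2777 and 3470 CPM in day 3 cKO replicates 1 to 3 and 253.2 in replicate 4, low in the same library as Myog. In cartilage 1 of 2 tested passed, Tnnt3, which rose by 2.87 (SE 0.264, adjusted p = 3.72e-06 by edgeR), from 7.70 ± 1.05 to 56.1 ± 17.2 CPM (SD, n = 4). For all these lists the background was 64.5% of genes called in either direction at day 0, 48.1% at day 3 and 6.19% in cartilage.

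**Figure D4:**
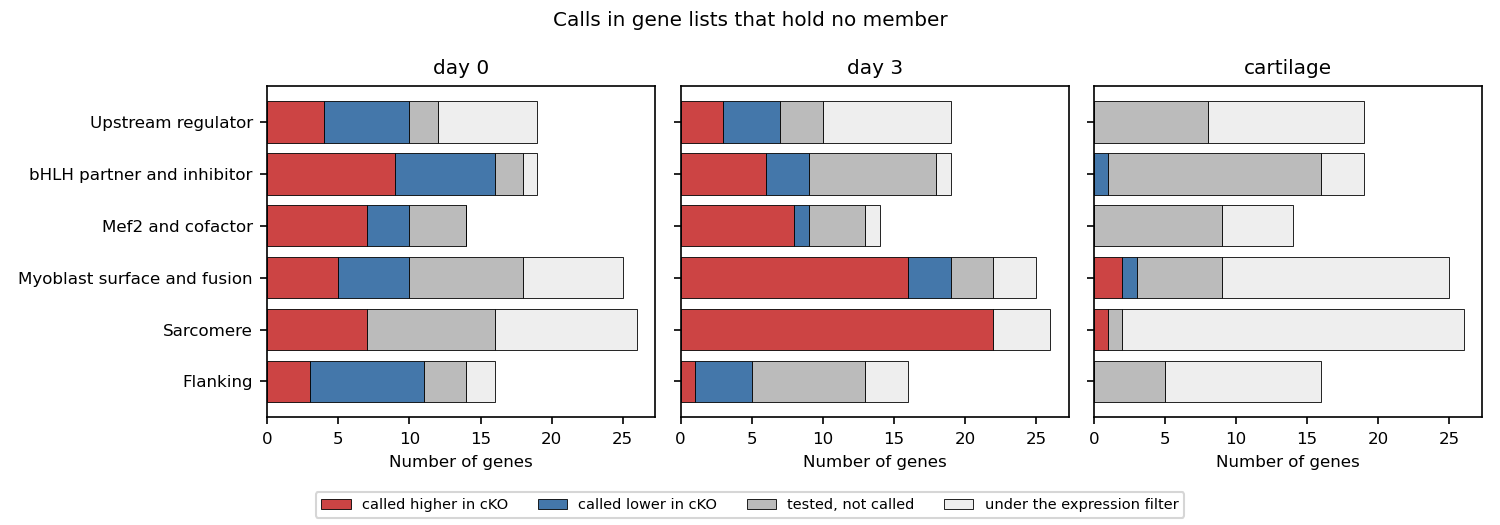
Stacked bars show, for each list and setting, how many tested genes were higher, lower or not called in cKO. All 22 tested sarcomere genes are higher at day 3, of which 11 had every control at the floor. Those 11 and others with few control counts passed the filter through cKO libraries. Few genes of any list are called in cartilage.

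Neighbouring genes were read because position had not chosen the members. Otog, whose start lies 135.5 kb from that of Myod1, fell by 2.41 (SE 0.189, adjusted p = 4.98e-06 by edgeR) at day 0 and by 2.56 (SE 0.654, adjusted p = 0.0117 by edgeR) at day 3, opposite to Myod1. Kcnc1, 20.02 kb away on the other side, did not pass the count filter. Beside Myog, Ppfia4 (42.9 kb) rose by 0.95 (SE 0.230) at day 0, a call lost with all 14 cultures fitted together, when Myog itself had 1 count. At day 3 its log2 fold change was 1.51 (SE 0.560, adjusted p = 0.0521 by edgeR), a gene called with DESeq2 (1.51, adjusted p = 0.0189), with all 14 cultures fitted together (1.51, adjusted p = 0.0149 by edgeR) and without cKO replicate 4 (1.84) or control replicate 3 (1.85), and that of Adora1 (54.6 kb) was 0.99 (SE 0.456, adjusted p = 0.106 by edgeR). The genes on either side of the Myf5 and Myf6 pair differed: Lin7a fell by 0.87 (SE 0.145) and 1.87 (SE 0.413) at days 0 and 3, the first call being lost with all 14 cultures fitted together, and Ptprq had log2 fold changes of 0.41 (SE 0.122) and -0.0011 (SE 0.356). The day 0 call of Ptprq was lost without cKO replicate 3 (0.32) or control replicate 3 (0.35) and with all 14 cultures fitted together (0.41). Epha4, 682.0 kb from Pax3, had a log2 fold change of -0.01 (SE 0.0610) at day 0 and rose by 1.76 (SE 0.480) at day 3, or 1.06 without cKO replicate 4. Prrc1, beside Megf10, fell by 0.87 (SE 0.0436) and 0.86 (SE 0.0615) while Megf10 was higher. Of 14 flanking genes tested at day 0, 3 rose and 8 fell (median log2 fold change -0.24), and of 13 at day 3, 1 rose and 4 fell (-0.16). Over all genes tested, 33.0% were called higher and 31.6% lower at day 0, and 25.5% and 22.6% at day 3. With so many genes called, nothing is read from the neighbours' calls. Without cKO replicate 4 the flanking genes called at day 3 numbered 9 in place of 5. None of 5 tested passed in cartilage by edgeR or DESeq2, and 2 had an unadjusted p under 0.05 by edgeR.

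**Figure D5:**
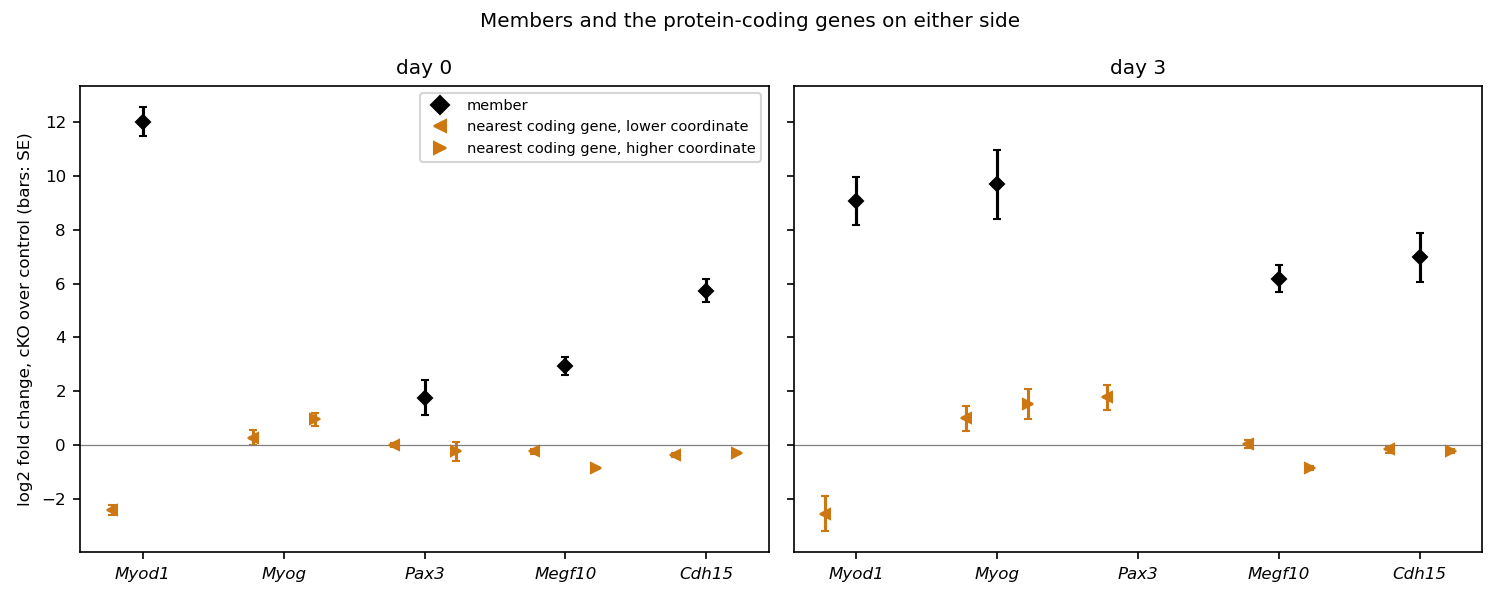
Points with bars show the log2 fold change (cKO over control) and its SE for Myod1, Myog, Pax3, Megf10 and Cdh15 (diamonds, where tested) and for the protein-coding genes on either side of each (triangles), at day 0 and day 3. With 0 control counts, the day 0 Myod1 value (12.0) depended on the method (11.4 with DESeq2), so its bar does not give its precision. Otog beside Myod1 lies near -2.5 on both days, and most neighbours lie within 1 log2 unit of 0.

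The genes whose levels over the 14 culture libraries were most like those of Myod1 and of Myog were not the same. Over 13160 genes with a mean of at least 1 CPM, those most like Myod1 by Pearson r of log2 CPM were Gm15023 (0.992), Rhox2g (0.991), 1110002E22Rik (0.988), Gm14654 (0.986) and Tex101 (0.986). Rhox2g is a reproductive homeobox gene and Tex101 encodes a germ cell surface protein. Gm15023 was at 0 in every control and at 6.36 ± 1.10 CPM in day 0 cKO cultures (SD, n = 3), a pattern of presence on both days. Those most like Myog were Lmod2, Chrng, Mb, Tnnc2 and Tnni1, each at r = 0.999, and all are genes of contractile or synaptic muscle. Lmod2 was at 17.1 ± 11.3 CPM in day 3 cKO cultures (SD, n = 4) and at 0.00765 CPM in day 0 cKO cultures. The libraries fall into the 4 groups, so these values describe a shared pattern of groups and carry no p.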

How the data were processed

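Per the labels, cultures were sequenced from total RNA with a stranded kit, and cartilage with BRB-seq, a barcoded 3' method. Estimated counts, deposited by the authors for the cultures, were rounded here to whole numbers; for cartilage the authors deposited both whole-number counts (used for its fit) and estimated counts. The genome build was GRCm38 per the submitters' processing notes. The aligner, counter, annotation and collapse of molecular identifiers are not given in the sources used here. Gene symbols and positions came from GENCODE M21, and 34582 of 34866 culture identifiers matched.

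Members and lists were chosen with earlier results of these data known. All genes were fitted with edgeR 4.0.16 in R 4.3.3 (TMM; filterByExpr, at least 10 counts, 15 in total; quasi-likelihood; Benjamini-Hochberg; call at adjusted p under 0.05), with sex as a term in cartilage. The fits were also run on simulated counts with the same dispersion for all genes. That setting held no outlying library such as the one at day 3, so it does not speak for the day 3 fit. Levels are TMM-scaled CPM, with 1 scaling over the 14 cultures. The SE of a log2 fold change is its absolute value divided by the square root of the quasi-likelihood F. Ratios of count sums carry exact 95% intervals that cover counting error only. Where a control group held 0, the fold was set against 3 counts in its shallowest library. The labels call the culture replicates biological, and give the cartilage replicates only a number and a sex. No label names separate animals or cultures, so p-values measure the spread between these samples, which may be technical.

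Named were all 9 members; up to 4 called genes of the largest log2 fold change per list and comparison; the tested flanking genes, of which the text gives a part and 1 is not reported here; and the 5 genes most like Myod1 and Myog by Pearson r of log2(CPM + 0.5). Alternatives were DESeq2 1.42.0, no filter, estimated counts for cartilage, a fit of all cultures, a replicate block and leaving out each library.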

Additional observations from a re-analysis of the deposited data

Results flagged for a closer look

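Among 87 groups of 4 libraries of the named genes, 9 held 1 library far from the other 3 by Dixon's ratio at the 95% level. Chance flags about 1 in 20 groups. Of the 9, 5 were day 3 cKO replicate 4. In that library Dach1 was at 25.3 CPM (others 5.12 to 5.82), Epha4 at 78.5 (19.6 to 28.6), Hdac9 at 25.1 (5.74 to 7.14), Id4 at 86.0 (33.8 to 39.6) and Ptprq at 25.98 (9.78 to 11.4), all high. Replicate 3 of day 3 cKO was high in Six2 at 0.730 CPM (0.346 to 0.395). Among day 3 controls, replicate 4 was high in Adora1 at 0.659 CPM (0.411 to 0.434) and replicate 1 in Id3 at 128.5 CPM (95.2 to 100.2). In cartilage, control replicate 1 was low in Jam2 at 13.2 CPM (21.1 to 21.7). No cause of these values was tested.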

How the results depend on the processing

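The members' values are descriptions, and depth limits what is said of Myf5, Myf6 and Pax7 in culture and, in cartilage, of members other than Six4. No log2 fold change that was called turned sign under the alternatives run. Some uncalled ones near 0 did, such as Ptprq at day 3 (-0.48 to 0.15) and Epha4 at day 0 (-0.04 to 0.03). Without day 3 cKO replicate 4, Pax3 (46.9%) passed Myod1 (31.7%) in the order of appearance. With all 14 cultures fitted together, 6260 genes were called at day 0 (10023 with day 0 alone), 10 of the bHLH list (16) and 6 flanking genes (11), and 8 flanking genes at day 3 (5). In cartilage, the fit without an expression filter called 1044 genes (544), 2 upstream regulators (0) and 4 sarcomere genes (1). The estimated counts called 1 upstream regulator, 1 of the Mef2 list (0) and 2 sarcomere genes. DESeq2 called 1 myoblast surface gene (3). The cause was not tested.

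Leaving out each library gave 5 to 9 flanking genes called at day 3 and 0 to 1 in cartilage. In cartilage it gave 362 to 630 genes called (362 without cKO replicate 4), 0 to 2 upstream regulators (2 without cKO replicate 2), 0 to 2 of the Mef2 list (2 without cKO replicate 3), 1 to 3 myoblast surface genes (1 without control replicate 2 or 4) and 1 to 2 sarcomere genes (2 without cKO replicate 1 or control replicate 3). The Pax3 day 0 level as a percent of day 3 ranged from 16.3 to 46.9.

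Replicate numbers did not pair the samples: deviations of same-numbered libraries correlated at -0.05, -0.06 and 0.14 at day 0, at -0.14 to -0.06 at day 3 and at -0.08 to 0.26 in cartilage. With the replicate block, 9724 genes were called at day 0, 5391 at day 3 and 576 in cartilage, and 3, 4 and 0 members.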
